A study of Mus musculus with 8 samples.

Results

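Signalling from phosphoinositide 3-kinase (PI3K) through Akt to Foxo3 and the kinase mTOR was followed at the transcript level in mouse oocytes that were produced from embryonic stem cells in vitro. Chosen by symbol, 8 of the 55385 genes in the count table made up the set: Pdpk1, Akt1 and Akt2 (kinases below PI3K), Foxo3 (the transcription factor that Akt restrains), Tsc1 and Tsc2 (the brake on mTOR), Mtor, and Rps6kb1 (a kinase that mTOR activates). All 8 were among the 14929 genes that passed the filter on low counts.

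The study made oocytes from 2 kinds of mouse embryonic stem cell of a C57BL/6 x 129/SvJ background, sex-converted XX cells of male origin and native XX cells, and polyadenylated RNA was sequenced from pools of these oocytes. There were 2 libraries in each of 4 groups: MII oocytes of sex-converted XX cells, MII oocytes of native XX cells, GV oocytes of sex-converted XX cells, and GV oocytes of native XX cells. MII oocytes had matured to metaphase of the second meiotic division and showed a first polar body, while GV oocytes (germinal vesicle stage) were collected with meiosis still arrested and the nucleus intact. Every group carried the reporter transgenes Blimp1-mVenus and Stella-ECFP. In every group the germ cells were aggregated with gonadal somatic cells of female embryos at day 12.5, at 5000 germ cells to 75000 somatic cells, cultured for 21 days, and grown as follicles for 11 days, and MII oocytes had 16 more hours of maturation culture. Pools held 35 to 58 oocytes at MII and 31 to 158 at GV. The labels call the libraries of a group biological duplicates. The sample descriptions give 1 cell line name for all sex-converted libraries and 1 for all native ones, so a difference between the kinds of cell and a difference between single lines cannot be told apart.

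As background, PI3K makes the lipid PIP3 at the inner face of the plasma membrane, where Pdpk1 phosphorylates and activates Akt. Active Akt phosphorylates Foxo3, which then leaves the nucleus, and phosphorylates Tsc2, which frees Rheb to activate mTOR complex 1 and raises translation through S6 kinase. In mouse primordial follicles nuclear Foxo3 holds oocytes dormant, and loss of Foxo3 or of Tsc1 in the oocyte sets off early growth of the whole pool. Much of this control acts on phosphorylation and on where proteins sit in the cell, which transcript counts do not measure.

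The libraries held between 10306471 and 14999003 reads assigned to genes. Pearson correlations of log2 values over the tested genes were 0.975 to 0.986 between libraries of 1 group, 0.969 to 0.987 between lines at 1 stage, and 0.769 to 0.806 between stages. The 12 oocyte markers, among them Zp3, Gdf9 and Ddx4, were detected in all 8 libraries with summed levels of 16800 to 20100 CPM (read counts scaled to a common library size) at MII and 13600 to 16900 CPM at GV. A few abundant genes carry that sum: the median marker level was 493 to 614 CPM at MII and 752 to 1030 CPM at GV, and 4 of the 12 were called higher and 8 lower at MII in the sex-converted line, 4 higher and 7 lower in the native line. The 15 granulosa and cumulus cell markers summed to 120 to 165 CPM at MII, with 9 to 13 of them detected per library, and to 56.8 to 78.9 CPM at GV, with 10 to 13 detected. Among these markers, Foxl2 had 0 reads in 6 libraries, 10 reads in native MII replicate 1 and 1 read in native GV replicate 1. Amh had at most 1 read in any library. Others had more: Cyp19a1 had 208 to 665 reads per library, Nr5a2 244 to 851 and Kitl 45 to 376. Vim had 1 to 4 reads per GV library and 15 to 175 per MII library. Of the 10 tested markers of this list, 4 were called higher and 1 lower at MII in the sex-converted line, beside 29.3% and 36.2% of all tested genes. In the native line 5 were higher and 1 lower, beside 29.6% and 35.7%. The 10 stromal and theca markers summed to 2.19 to 6.46 CPM at MII and 1.11 to 2.09 CPM at GV, with 4 to 6 detected per MII library and 3 or 4 per GV library. Mitochondrial transcripts took 0.429% to 0.532% of reads at MII and 0.0751% to 0.248% at GV. These sums therefore moved with stage, and their part in the differences between stages was not tested. In such pools, fewer cells of a type and less RNA per cell cannot be told apart.

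The libraries were made from polyadenylated RNA, and tails are known to be shortened and lengthened as mouse oocytes mature, so the annotated 3′ ends of the transcripts were read. The sequences shown are 30 bases near the end of the principal annotated transcript (GENCODE M21, GRCm38) of selected members. These are, by the main fit given below, the member with the largest stage difference, Foxo3, Mtor and the member that was lower at MII. Each window is placed around the polyadenylation signal, which starts 24, 27 and 28 bases from the transcript end in Akt1, Foxo3 and Mtor. For Tsc2, where no signal was found, the window is the last 30 bases. Capitals mark the polyadenylation signal AATAAA, and each sequence is written 5′ to 3′ on the strand of the gene.
Akt1: ccctccaaattcAATAAAaattgcttttca
Foxo3: atgacgcatgtaAATAAAgctttggtgaca
Mtor: aaattttgtgccAATAAAtgacatcagaat
Tsc2: cggataaaggagaagtgtagcttagccctc
The Akt1 window lies at chr12:112653827-112653856 on the minus strand, near the end of a 3′ untranslated region of 877 bases. The Foxo3 window lies at chr10:42181850-42181879 on the minus strand, near the end of an untranslated region of 4490 bases. The Mtor window lies at chr4:148557644-148557673 on the plus strand, near the end of one of 823 bases. The Tsc2 window lies at chr17:24595937-24595966 on the minus strand, at the end of one of 668 bases. Among the principal transcripts of the 8 genes, that of Tsc2 alone had no AATAAA or ATTAAA in its last 40 bases. The other 7 had AATAAA there, against 77.2% of 12059 tested protein-coding genes with either signal. The Tsc2 gene is annotated as far as chr17:24595816, beyond the end of this Tsc2 transcript. The ends of other Tsc2 transcripts were not read. The cytoplasmic polyadenylation motifs TTTTAT and TTTTAAT were searched on the transcript strand in the last 100 bases. They were found in 0 of the 8 principal transcripts and in 19.8% of those of the 12059 genes. These letters describe annotated ends only, and which ends the oocytes use was not measured.

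Among the kinases and the transcription factor, all 4 transcripts were called higher in MII than in GV oocytes of both lines. Akt1, an isoform of Akt with a broad part in growth and survival, differed most, with 4.04 times the GV level at MII in the sex-converted line and 4.86 times in the native line. Pdpk1 had 3.18 and 3.41 times the GV level, Foxo3 2.15 and 2.2 times, and Akt2 1.97 and 2.17 times, in the sex-converted and native lines. With library totals as the only scaling these 4 genes kept their direction, but Foxo3 and Akt2 were not called. Tsc2 was called lower at MII in the sex-converted line and missed the threshold in the native line. Levels are given as CPM scaled by trimmed mean of M-values (TMM) factors, and each fold change is the log2 of MII over GV with its standard error (SE). Tests were edgeR quasi-likelihood tests, two-sided, with Benjamini-Hochberg adjustment over all 14929 genes.

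Akt1 (ENSMUSG00000001729.14, chr12:112653821-112674884) had 668 and 648 CPM in sex-converted MII oocytes against 166 and 160 CPM in sex-converted GV oocytes. It had 760 and 650 CPM in native MII oocytes against 130 and 160 CPM in native GV oocytes. Every MII library lay far above every GV library, and replicates were closer to each other in the sex-converted line. In that line the log2 fold change was 2.01 (SE 0.18, edgeR adjusted p = 3.3e-06) and in the native line 2.28 (SE 0.18, edgeR adjusted p = 1.58e-06). Counting sign, 88% of tested genes had a lower log2 fold change than Akt1 in the sex-converted line and 91% in the native line. These shares include all genes that were lower at MII. Without sign, the median log2 change of all tested genes was 1.63 in the sex-converted line and 1.63 in the native line.

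Akt2 (ENSMUSG00000004056.15, chr7:27591552-27640826), the isoform best known for its role in the insulin response, had 105 and 129 CPM in sex-converted MII oocytes against 60 and 58.4 CPM in sex-converted GV oocytes. In the native line it had 100 and 114 CPM at MII against 39.7 and 59.5 CPM at GV. The stages did not overlap, and native GV replicate 1 was the lowest library. Akt2 changed by a log2 of 0.98 (SE 0.24, edgeR adjusted p = 0.00351) in the sex-converted line and 1.12 (SE 0.24, edgeR adjusted p = 0.00159) in the native line.

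Pdpk1 (ENSMUSG00000024122.16, chr17:24073680-24150924) encodes the kinase that phosphorylates Akt in its activation loop. It had 308 and 336 CPM in sex-converted MII oocytes against 112 and 91 CPM in sex-converted GV oocytes, and 350 and 332 CPM in native MII oocytes against 89.9 and 110 CPM in native GV oocytes. All MII libraries were above all GV libraries by a wide margin. Its log2 fold change was 1.67 (SE 0.19, edgeR adjusted p = 1.93e-05) in the sex-converted line and 1.77 (SE 0.19, edgeR adjusted p = 1.3e-05) in the native line.

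Foxo3 (ENSMUSG00000048756.11, chr10:42181841-42276755) had 648 and 682 CPM in sex-converted MII oocytes against 320 and 299 CPM in sex-converted GV oocytes. In the native line it had 613 and 742 CPM at MII against 276 and 340 CPM at GV. Again the stages did not overlap, and the native replicates were farther apart than the sex-converted ones at both stages. For Foxo3 the log2 fold change was 1.10 (SE 0.18, edgeR adjusted p = 0.000208) in the sex-converted line and 1.14 (SE 0.18, edgeR adjusted p = 0.000169) in the native line.

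On the mTOR side the differences were smaller and less even, and for Mtor, Rps6kb1 and Tsc1 their sign turned with library totals as the only scaling. Mtor (ENSMUSG00000028991.15, chr4:148448611-148557683), the kinase itself, had 122 and 135 CPM in sex-converted MII oocytes against 90 and 73.9 CPM in sex-converted GV oocytes, and 134 and 140 CPM in native MII oocytes against 72.5 and 79.6 CPM in native GV oocytes. The MII libraries lay above the GV libraries in both lines. Mtor had a log2 fold change of 0.65 (SE 0.19, edgeR adjusted p = 0.0111) in the sex-converted line and 0.85 (SE 0.19, edgeR adjusted p = 0.00231) in the native line. The call in the sex-converted line was lost without sex-converted GV replicate 2 (0.55, edgeR adjusted p = 0.0855) and without sex-converted MII replicate 2 (0.58, edgeR adjusted p = 0.0799).

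Rps6kb1 (ENSMUSG00000020516.15, chr11:86498871-86544805) encodes S6 kinase 1, which phosphorylates ribosomal protein S6. It had 49.7 and 66 CPM in sex-converted MII oocytes against 28.6 and 37.2 CPM in sex-converted GV oocytes, and 53.7 and 52.8 CPM in native MII oocytes against 42.4 and 32.9 CPM in native GV oocytes. The stages did not overlap, although the GV replicates of each line differed. Rps6kb1 had a log2 fold change of 0.81 (SE 0.25, edgeR adjusted p = 0.0132) in the sex-converted line, and 0.50 (SE 0.25, edgeR adjusted p = 0.0951) in the native line, where it was not called. The first call was lost without sex-converted GV replicate 1 (0.65, edgeR adjusted p = 0.103) and without sex-converted MII replicate 2 (0.60, edgeR adjusted p = 0.127). Within GV, the libraries with the lower Rps6kb1 level, 28.6 and 32.9 CPM, were also those with the lower mitochondrial share, 0.0751% and 0.077% of reads, against 0.229% and 0.248% in the libraries with 37.2 and 42.4 CPM. Between the same libraries other members were ordered the other way: Pdpk1 had 112 and 110 CPM where the share was lower against 91 and 89.9 CPM, Foxo3 320 and 340 CPM against 299 and 276 CPM, and Mtor 90 and 79.6 CPM against 73.9 and 72.5 CPM. The part of that split in the result was not tested.

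Tsc1 and Tsc2 encode hamartin and tuberin, which act together to turn Rheb off. Tsc1 (ENSMUSG00000026812.16, chr2:28641228-28691167) had 72.8 and 73.5 CPM in sex-converted MII oocytes against 80.5 and 60.4 CPM in sex-converted GV oocytes, and 72.9 and 54.2 CPM in native MII oocytes against 52.7 and 51.4 CPM in native GV oocytes. The stages overlapped in the sex-converted line and came close to touching in the native line. The log2 fold change was 0.054 (95% confidence interval -0.45 to 0.56, edgeR adjusted p = 0.844) in the sex-converted line and 0.29 (-0.22 to 0.79, edgeR adjusted p = 0.286) in the native line, so neither was called.

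Tsc2 (ENSMUSG00000002496.10, chr17:24595816-24632630) had the fewest reads of the 8 genes, 149 to 209 at MII and 389 to 641 at GV. It had 18.5 and 14.2 CPM in sex-converted MII oocytes against 23.2 and 31.2 CPM in sex-converted GV oocytes, and 20 and 19.8 CPM in native MII oocytes against 25.5 and 31 CPM in native GV oocytes. Every MII library was below every GV library. The log2 fold change was -0.74 (SE 0.27, edgeR adjusted p = 0.0309) in the sex-converted line and -0.51 (SE 0.27, edgeR adjusted p = 0.116) in the native line. The call in the sex-converted line was lost without sex-converted GV replicate 2 (-0.48, edgeR adjusted p = 0.24) and without sex-converted MII replicate 2 (-0.56, edgeR adjusted p = 0.201). Tsc2 shares 693 exonic bases with Pkd1 on the other strand, and Rps6kb1 shares 155 with Rnft1 on the other strand. The strand setting of the counting was not given in the sources used here, so reads in those stretches cannot be assigned to 1 gene with certainty.

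**Figure D1:**
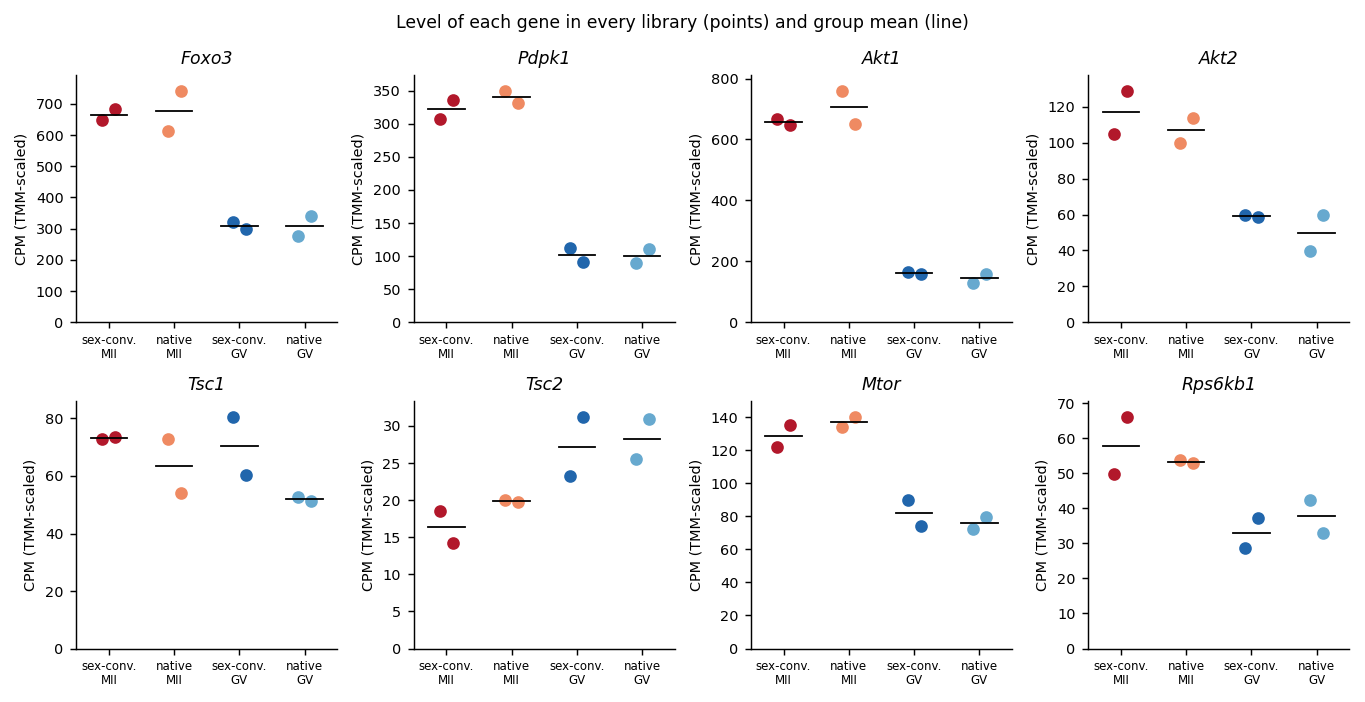
Level of each of the 8 genes in each library, in CPM with TMM scaling on an axis that starts at 0, with MII groups left of GV groups, 1 point per library and a line at the group mean. Akt1, Pdpk1, Foxo3, Akt2, Mtor and Rps6kb1 sit higher at MII in both lines, of which Mtor and Rps6kb1 turn with library totals as the only scaling, while Tsc1 overlaps between stages in the sex-converted line, and Tsc2 sits lower at MII.

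In all, 6 of the 8 genes were called higher and 1 lower at MII in the sex-converted line. Of all tested genes there, 29.3% were called higher and 36.2% lower. In the native line 5 of 8 were called higher and 0 lower, against 29.6% of all tested genes called higher and 35.7% lower. MII and GV levels did not overlap for 7 of the 8 genes in the sex-converted line and for 8 of 8 in the native line, where 84.8% and 83.5% of all tested genes also did not overlap. The median log2 fold change of the 8 genes was 0.90 in the sex-converted line and 0.98 in the native line, beside medians over all tested genes of -0.35 in the sex-converted line and -0.31 in the native line. The comparisons in the 2 lines share no library, but 1 fit of all 8 libraries gave their p-values, with a shared estimate of the spread.

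**Figure D2:**
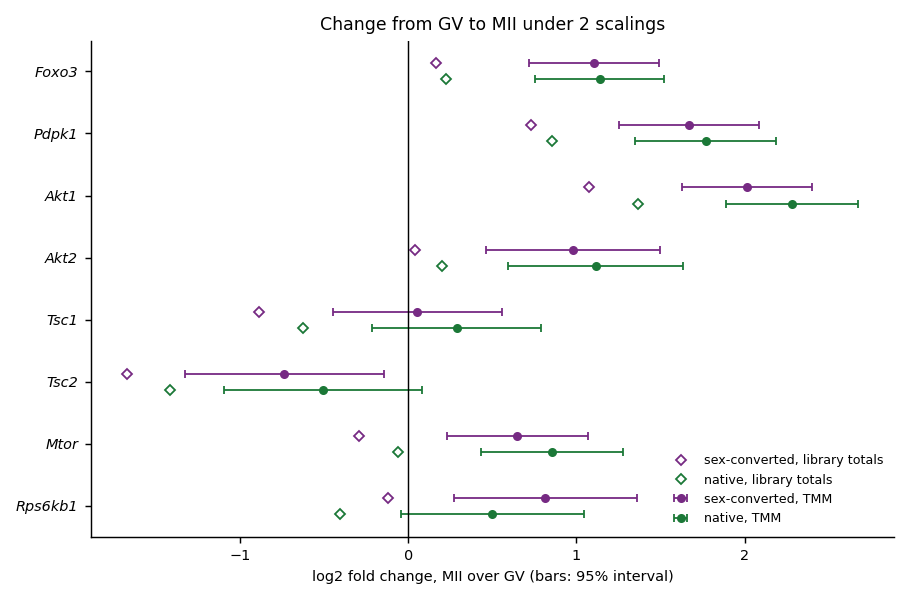
Log2 fold change of MII over GV for each gene in each line, under TMM scaling (filled points with 95% confidence intervals) and with library totals as the only scaling (open diamonds). Akt1 and Pdpk1 stay above 0 and Tsc2 below 0 under both scalings, while Mtor, Rps6kb1 and Tsc1 change side.

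The direction of several of these differences depended on the scaling. The TMM factors were 0.714 to 0.733 at MII and 1.33 to 1.43 at GV, and without them all tested genes had a median log2 change of -1.28 in the sex-converted line and -1.21 in the native line. On that scale Akt1 remained higher at MII, by 1.08 and 1.37 on the log2 scale in the sex-converted and native lines, and so did Pdpk1, by 0.73 and 0.86, each called in both lines. Foxo3 had changes of 0.17 and 0.23, and Akt2 of 0.042 and 0.20, none of them called. Mtor had -0.29 and -0.059 and was not called. Tsc1 was lower at MII, with -0.89 (edgeR adjusted p = 0.0062) in the sex-converted line and -0.63 (edgeR adjusted p = 0.0341) in the native line. Tsc2 was lower in both lines, with -1.67 and -1.42, the largest changes in size among the 8 genes on that scale. Rps6kb1 had -0.12 and -0.41 and was not called. Under library totals the counts were thus 2 higher and 2 lower in each line, beside 15.9% of all tested genes higher and 52.1% lower in the sex-converted line and 16.7% higher and 51.0% lower in the native line. The amount of messenger RNA per oocyte was not measured, and a change in the amount of a transcript and a change in the length of its tail cannot be told apart in libraries selected for poly(A).

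Levels of different genes were compared as TMM-scaled CPM per kilobase of exon. Akt1 led at MII, with 161 ± 3.43 per kilobase in sex-converted oocytes and 172 ± 18.9 in native ones (SD, n = 2 each), followed by Foxo3 with 87.8 ± 3.13 and 89.5 ± 12.0. Pdpk1 came next, with 29.4 ± 1.78 in sex-converted MII oocytes and 31.2 ± 1.18 in native ones, then Akt2 with 16.4 ± 2.39 and 15.1 ± 1.38, and Mtor with 12.7 ± 0.852 and 13.6 ± 0.427. Rps6kb1 and Tsc1 overlapped in both lines at MII, and Tsc2 was the lowest, with 1.7 ± 0.318 in sex-converted MII oocytes and 2.07 ± 0.0125 in native ones. At GV the top 2 genes did not differ beyond their spread on this exon length. Foxo3 had 40.9 ± 1.92 per kilobase in sex-converted GV oocytes and 40.6 ± 6.01 in native ones, and Akt1 had 39.7 ± 1.13 and 35.4 ± 5.24, with overlapping replicates in both lines. With the longest transcript as length (2690 bases for Akt1, 6848 for Foxo3), Akt1 led at GV in both lines. The 2 genes then did not overlap in the sex-converted line. Per kilobase of exon, Akt2 and Mtor also overlapped at GV in both lines, and so did Pdpk1 and Akt2. Tsc2 was lowest at GV too, with 2.83 ± 0.591 in sex-converted GV oocytes and 2.94 ± 0.41 in native ones. The highest gene exceeded the lowest 94.5 times in sex-converted MII oocytes and 83.3 times in native MII oocytes, against 14.4 times in sex-converted GV oocytes and 13.8 times in native GV oocytes.

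Ratios of genes within a library do not depend on how libraries are scaled. The ratios given here were chosen after the values were seen, so they carry no test. Akt1 over Akt2, both per kilobase, was 11.1 and 8.76 in sex-converted MII oocytes and 13.2 and 9.89 in native MII oocytes, against 4.82 and 4.76 in GV oocytes of the sex-converted line and 5.7 and 4.69 in those of the native line. All 4 MII libraries were above all 4 GV libraries.

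Foxo3 over Foxo1, its close relative, ranged over 3.05 to 4.12 at MII and 1.01 to 1.4 at GV, so the pair was near parity in GV oocytes of both lines. Rps6kb1 over Rps6kb2, the gene of the second S6 kinase, ranged over 18.1 to 45.4 at MII and 2.46 to 4.41 at GV, and rests on only 6 to 15 reads of Rps6kb2 per MII library. Rictor over Rptor, the subunits that define mTOR complex 2 and mTOR complex 1, ranged over 16.5 to 29.8 at MII and 2.04 to 3.09 at GV. Tsc1 over Tsc2 was 2.22 to 4.22 at MII and 1.35 to 2.82 at GV, with sex-converted GV replicate 1 at 2.82 inside the MII range. Of these 5 ratios it was the only one whose stages overlapped.

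**Figure D3:**
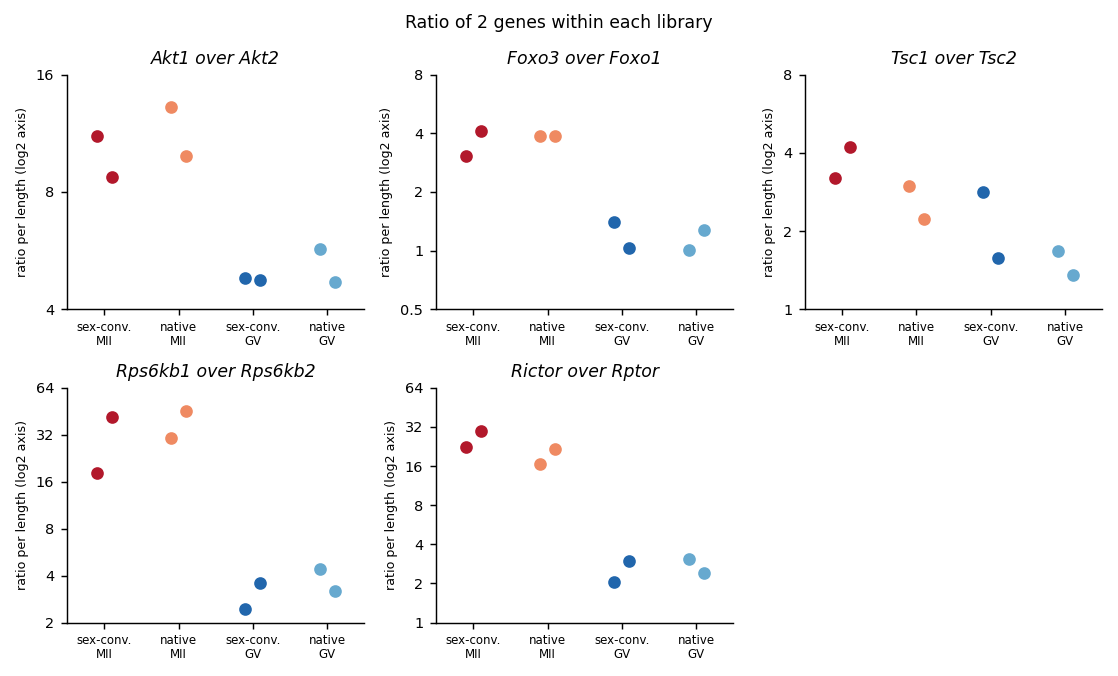
Ratio of levels per kilobase within each library for 5 pairs of genes on a log axis, with MII left of GV and 1 point per library. The MII points lie above the GV points for every pair except Tsc1 over Tsc2, where 1 GV library falls inside the MII range.

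Sex-converted and native oocytes did not differ detectably in any of the 8 genes at either stage. At GV 0 of 8 were called, beside 0.0134% of all tested genes, and at MII 0 of 8 beside 0.0134%. The line by stage interaction, which asks whether the MII over GV change differed between lines, called 0 of 8 beside 0.0% of all tested genes. In each of the 3 comparisons 0 of 8 genes were at an unadjusted p under 0.05 by edgeR, and DESeq2 called 0. Of all 14929 tested genes 319, 549 and 329 were at such a p at GV, at MII and in the interaction. The log2 differences of sex-converted over native ran from -0.19 (Rps6kb1) to 0.44 (Tsc1) at GV and from -0.28 (Tsc2) to 0.20 (Tsc1) at MII. The 95% intervals of the 8 genes spanned -0.73 to 0.94 at GV and -0.88 to 0.71 at MII. A p that misses the threshold does not show that the lines were alike within these bounds.

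The largest of these differences was in Tsc1 at GV. Its libraries had 80.5 and 60.4 CPM in sex-converted GV oocytes against 52.7 and 51.4 CPM in native GV oocytes, which did not overlap. The log2 difference was 0.44 (SE 0.23, edgeR unadjusted p = 0.0815, edgeR adjusted p = 1). Groups that did not overlap were found for 1 of 8 genes at GV and 23.5% of all tested genes. At MII they were found for 1 of 8, Tsc2, and for 31.0% of all tested genes. Tsc2 had 18.5 and 14.2 CPM in sex-converted MII oocytes against 20 and 19.8 CPM in native MII oocytes, a log2 difference of -0.28 (SE 0.27, edgeR adjusted p = 1). Akt1, the gene with the largest stage difference under TMM scaling, had a log2 difference between lines of 0.17 (SE 0.17) at GV and -0.10 (SE 0.17) at MII. Its interaction value was -0.27 (95% confidence interval -0.80 to 0.26), and that of Foxo3 was -0.035 (-0.57 to 0.50).

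**Figure D4:**
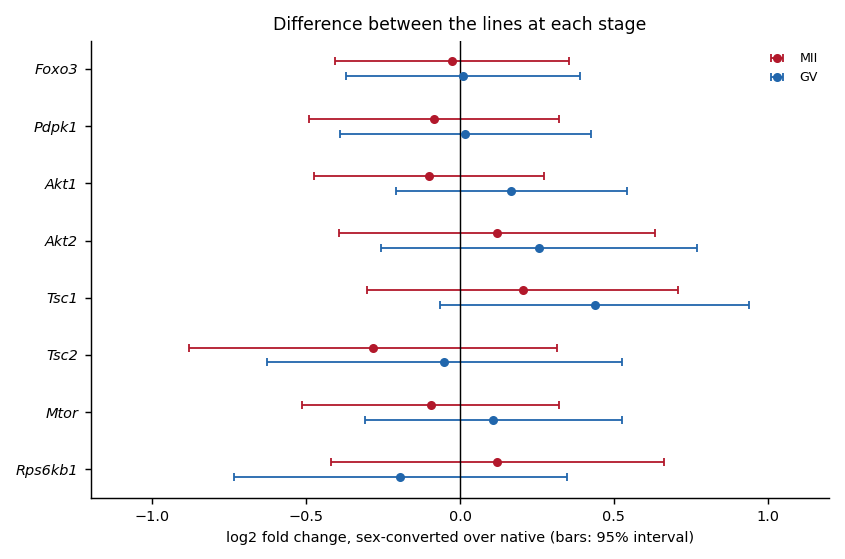
Log2 difference of sex-converted over native oocytes for each gene at MII and at GV, with 95% confidence intervals. Every interval includes 0, and the point farthest from 0 is Tsc1 at GV with 0.44.

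The rest of the pathway was read from 10 role lists of 78 genes, of which 74 were tested. In the sex-converted line 28 of the 74 (37.8%) were higher and 26 (35.1%) lower at MII, beside 29.3% and 36.2% of all tested genes. In the native line 30 (40.5%) were higher and 28 (37.8%) lower, beside 29.6% and 35.7%. Called in both lines in the same direction were 27 higher and 23 lower, beside 26.9% of all tested genes higher and 32.0% lower. The median log2 fold change of the 74 genes was 0.16 in the sex-converted line and 0.08 in the native line. With library totals as the only scaling, counts in the sex-converted line were 19 higher and 39 lower, and those in the native line 24 higher and 40 lower, beside 15.9% of all tested genes higher and 52.1% lower in the sex-converted line and 16.7% higher and 51.0% lower in the native line. Between lines 0 of 74 were called at GV, at MII or in the interaction, beside 0.0134%, 0.0134% and 0.0% of all tested genes. At an unadjusted p under 0.05 by edgeR were 2, 1 and 0 of the 74, beside 319, 549 and 329 of the 14929. Below, a gene is called higher or lower only where both lines passed the test.

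Upstream, subunits of class I PI3K differed between stages in opposite directions. Of the 6 tested genes 2 were higher and 2 lower at MII. Pik3r1, the main regulatory subunit, had 833 and 881 CPM in sex-converted MII oocytes against 91.7 and 95.4 CPM in sex-converted GV oocytes, and 912 and 901 CPM in native MII oocytes against 101 and 92.9 CPM in native GV oocytes. Its stages were far apart in both lines, with log2 fold changes of 3.20 (SE 0.16, edgeR adjusted p = 3.22e-07) and 3.23 (SE 0.16, edgeR adjusted p = 2.46e-07) in the sex-converted and native lines. Pik3cd, the catalytic subunit best known from leukocytes, had 139 and 121 CPM in sex-converted MII oocytes against 981 and 750 CPM in sex-converted GV oocytes, and 131 and 115 CPM in native MII oocytes against 725 and 1010 CPM in native GV oocytes. It was lower at MII in both lines, with log2 fold changes of -2.73 (SE 0.22) and -2.82 (SE 0.22). Pik3cb, another catalytic subunit, was higher at MII, with 1.38 (SE 0.26) and 1.63 (SE 0.26), though with library totals as the only scaling its value in the sex-converted line was 0.44 and not called. Pik3r2, a second regulatory subunit, was lower, with 3 to 23 reads per MII library against 93 to 144 per GV library.

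Of the 3 tested receptor and adaptor genes 1 was higher and 1 lower. Kit, the receptor through which granulosa cells signal to the oocyte, averaged 320.0 CPM in sex-converted MII oocytes against 235 CPM in sex-converted GV oocytes, and 370.0 CPM in native MII oocytes against 259 CPM in native GV oocytes. Its log2 fold changes were 0.45 (edgeR adjusted p = 0.0306) and 0.52 (edgeR adjusted p = 0.0158). With library totals as the only scaling they were -0.49 and -0.39, so no direction can be given for Kit. The call in the sex-converted line was also lost under both other filters on low counts (edgeR adjusted p = 0.125 and 0.0604) and without any 1 of the 4 sex-converted libraries or of the 2 native MII libraries. In the native line it was lost with the loosest filter (edgeR adjusted p = 0.0969) and without native MII replicate 2 (edgeR adjusted p = 0.17). Igf1r, the receptor of insulin-like growth factor 1, had 25 and 12 reads in sex-converted MII oocytes against 261 and 305 reads at GV in the same line, and in the native line 79 and 25 reads at MII against 244 and 238 reads at GV. It was called lower in both lines, and in the native line its log2 fold change of -1.52 was -2.40 without native MII replicate 1 and lost the call without native MII replicate 2 (-1.03, edgeR adjusted p = 0.0849). In the sex-converted line -2.98 became -3.73 without sex-converted MII replicate 1.

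Of the 5 phosphatases that remove phosphates from PIP3 and related lipids, 2 were higher and 0 lower. Inpp4a had log2 fold changes of 3.29 (SE 0.25) in the sex-converted line and 3.65 (SE 0.25) in the native line, and Inppl1 of 1.80 (SE 0.25) and 1.65 (SE 0.25).

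Next to Akt, 3 of the 7 genes were higher and 1 lower. Both glycogen synthase kinase 3 genes, whose products Akt inhibits, were higher: Gsk3a with log2 fold changes of 2.21 (SE 0.27) and 2.33 (SE 0.27), and Gsk3b with 1.96 (SE 0.22) and 1.87 (SE 0.22), in the sex-converted and native lines. Cdkn1b, a cell cycle inhibitor whose gene Foxo factors activate, was lower, with 17 and 7.7 CPM in sex-converted MII oocytes against 46.9 and 43.7 CPM in sex-converted GV oocytes, and 15.1 and 13.1 CPM in native MII oocytes against 42.9 and 49.2 CPM in native GV oocytes. Its log2 fold change in the sex-converted line was -1.88, and -2.56 without sex-converted MII replicate 1.

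Of the 10 genes of other Foxo factors and of the Ywha adaptor proteins, which hold phosphorylated Foxo in the cytoplasm, 3 were higher and 3 lower. Foxo4 had 11.3 and 11.1 CPM in sex-converted MII oocytes against 3.87 and 1.46 CPM in sex-converted GV oocytes, and 11.4 and 10.4 CPM in native MII oocytes against 1.06 and 1.55 CPM in native GV oocytes. Foxo6 was likewise higher, with 16.7 to 28.9 CPM over the MII libraries against 2.34 to 4.77 CPM over the GV libraries. Without sex-converted GV replicate 1, the log2 fold change of Foxo4 in the sex-converted line was 2.94 in place of 2.08, and that of Foxo6 was 2.91 in place of 2.31. With library totals as the only scaling Foxo4 had 1.13 there and was not called. Ywhaq was lower, with log2 fold changes of -2.69 (SE 0.34) and -3.03 (SE 0.35), and so was Ywhah with -2.57 (SE 0.26) and -2.71 (SE 0.27). The more abundant Ywha genes did not all follow. Ywhaz averaged 485 and 504 CPM at MII against 133 and 131 CPM at GV, in the sex-converted and native lines. In the same order Ywhab averaged 72.9 and 80.5 CPM against 226 and 261 CPM. Ywhae averaged 548 and 575 CPM against 495 and 599 CPM, and Ywhag 388 and 350 CPM against 448 and 414 CPM. Foxo1 had -0.45 (edgeR adjusted p = 0.0641) in the sex-converted line, not called, and -0.63 (edgeR adjusted p = 0.0166) in the native line. Foxo1 and Rptor were picked for their relation to the 8 genes and not by the rule for named genes. Ywhaz, Ywhab, Ywhae and Ywhag were added as the most abundant Ywha genes, also outside that rule.

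Between the Tsc complex and mTOR, all 3 tested genes were called. Rheb, the GTPase that activates mTOR complex 1, had 300 and 297 CPM in sex-converted MII oocytes against 84.9 and 81.3 CPM in sex-converted GV oocytes, and 330 and 319 CPM in native MII oocytes against 88.3 and 94.8 CPM in native GV oocytes. The stages were well apart, with log2 fold changes of 1.85 (SE 0.17, edgeR adjusted p = 4.23e-06) and 1.83 (SE 0.17, edgeR adjusted p = 4.45e-06) in the sex-converted and native lines, and Rheb was also called higher with library totals as the only scaling (0.91 in each line). Its relative Rhebl1 was higher too, with 38.6 to 49.4 CPM over the MII libraries against 5.75 to 15 CPM over the GV libraries. Its log2 fold change in the sex-converted line was 2.22, and 3.06 without sex-converted GV replicate 1. Tbc1d7, the third subunit of the Tsc complex, was lower, with 2 to 15 reads per MII library against 150 to 241 per GV library. Under TMM scaling, Tbc1d7 was therefore called lower in both lines, Tsc2 in the sex-converted line, and Tsc1 in neither. With library totals as the only scaling these 3 subunit genes of the Tsc complex were all called lower in both lines.

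**Figure D5:**
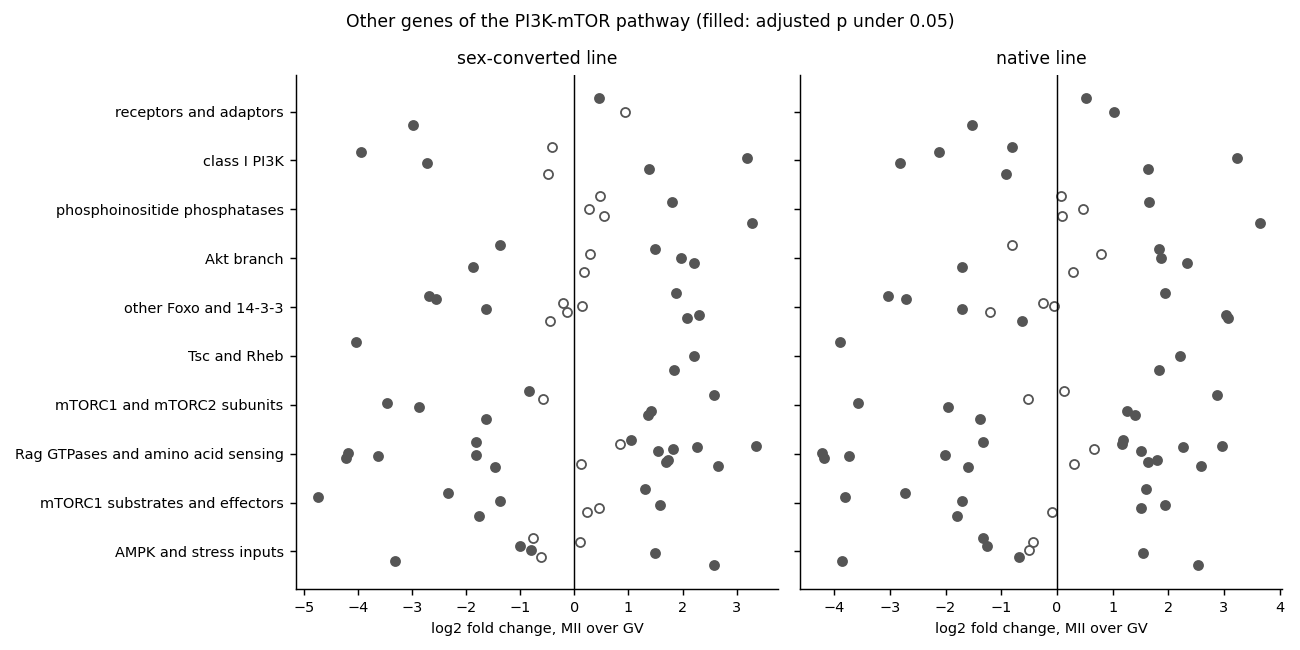
Log2 fold change of MII over GV for the tested pathway genes by role list under TMM scaling, with the sex-converted line in the left panel, the native line in the right panel and 1 point per gene, filled where called. Most lists hold genes on both sides of 0, and the phosphatases hold none that was called lower.

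Of the 8 subunit genes of the mTOR complexes 3 were higher and 3 lower. Rictor, the scaffold of mTOR complex 2, had 215 and 274 CPM in sex-converted MII oocytes against 39.1 and 42.2 CPM in sex-converted GV oocytes, and 243 and 240 CPM in native MII oocytes against 37 and 28.5 CPM in native GV oocytes. The stages did not approach each other, and the log2 fold changes were 2.59 (SE 0.21, edgeR adjusted p = 2.26e-06) and 2.88 (SE 0.22, edgeR adjusted p = 1.31e-06) in the sex-converted and native lines. Deptor, which inhibits both complexes, was higher with 1.37 (SE 0.18) and 1.40 (SE 0.18), of which the first was 0.43 and not called with library totals as the only scaling. Prr5, a further subunit of complex 2, was lower with -3.47 (SE 0.35) and -3.57 (SE 0.35), and Mlst8, shared by both complexes, had 6 to 11 reads per MII library against 57 to 88 per GV library. Rptor, the scaffold of complex 1, had -0.83 (edgeR adjusted p = 0.0344) in the sex-converted line and 0.12 (edgeR adjusted p = 0.75) in the native line, and their difference did not pass the interaction test.

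Of the 16 genes by which amino acids reach mTOR complex 1 at the lysosome, 7 were higher and 6 lower. Flcn, which acts on the Rag GTPases, was higher, with log2 fold changes of 2.67 (SE 0.22) in the sex-converted line and 2.59 (SE 0.22) in the native line. Rragd, a Rag GTPase, had 25 to 38 reads per MII library against 4 to 10 per GV library. Lamtor4, of the lysosomal anchor, had 4 to 17 reads per MII library against 292 to 422 per GV library, and Nprl3, of a complex that restrains mTOR complex 1, had 0 to 7 against 86 to 130. Native MII replicate 1 held the most reads of Lamtor4 and Nprl3 among the MII libraries, and also of Igf1r, Pik3r2, Tbc1d7 and Rps6. It had the highest sum of granulosa and cumulus markers, 165 CPM, whose part in these counts was not tested.

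Of the 8 substrate and effector genes 2 were higher and 4 lower. Eif4ebp2, a translation repressor that mTOR complex 1 inactivates, had log2 fold changes of 1.59 (SE 0.30) in the sex-converted line and 1.93 (SE 0.30) in the native line, the second reaching 2.54 without native GV replicate 2. Ulk1, an autophagy kinase that mTOR complex 1 restrains, had 1.31 (SE 0.23) and 1.61 (SE 0.23). With library totals as the only scaling neither was called in the sex-converted line (0.65 and 0.37). Rps6, the ribosomal protein that S6 kinase phosphorylates, had 13 and 4 reads in sex-converted MII oocytes against 260 and 651 reads at GV in the same line, and in the native line 49 and 0 reads at MII against 852 and 302 reads at GV. Rps6 has near-identical pseudogene copies, so these counts are uncertain. Rps6kb2 was lower, with log2 fold changes of -2.34 (SE 0.44) and -2.74 (SE 0.46).

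For each of the 8 genes the most similar pattern was sought among 7238 protein-coding genes with a mean of at least 10 CPM, by the root mean square difference of centred log2 levels over the 8 libraries. Akt1 was closest to Mapkbp1, at 0.0493 log2 units, Pdpk1 to Zfand2a at 0.0549, Rps6kb1 to Dnaja2 at 0.0619, Foxo3 to Clasp2 at 0.0757, Mtor to Blmh at 0.0757, and Akt2 to Otud3 at 0.0946. Tsc1 and Tsc2 had less close neighbours, Psmd9 at 0.128 and Cox6a1 at 0.126. These distances are over 8 libraries of 2 stages and carry no test.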

How the data were processed

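Per the labels' protocols, stranded libraries of polyadenylated RNA from pooled oocytes were amplified over 13 PCR cycles and sequenced from 1 end for 75 bases. The authors deposited whole-number read counts per gene in 1 table with no normalization. The submitters' processing notes name Trimmomatic 0.38, HISAT2 2.1.0, featureCounts 2.0.0, DESeq2 1.30.1 and the build mm10. The annotation release, the strand setting and the handling of reads with several matches were not given in the sources used here, which touches genes with overlaps or copies. Gene names, lengths and 3′ ends came from GENCODE M21 on GRCm38, and 55144 of 55385 identifiers matched.

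Groups came from the sample titles. Genes were kept by filterByExpr (minimum count 10), and all 8 libraries entered 1 edgeR 4.0.16 quasi-likelihood fit in R 4.3.3 with a coefficient per group, TMM factors and 4 residual degrees of freedom. A gene was called at an adjusted p under 0.05. SE was obtained by dividing the size of the log2 fold change by the root of its F statistic. The procedure was tested on simulated counts. Alternatives were DESeq2 1.42.0, its size factors, library totals alone, other filters, fewer libraries per fit, a replicate block and leaving out each library. The precision of a count is limited further by PCR copies, since no molecular identifiers were used.

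The 8 genes and the lists were chosen with earlier results of these data known. Pathway genes were named as up to 2 per direction and list with the largest mean change among those called in both lines, and genes of similar pattern as the closest 1 per member. The role and marker lists and this rule were written with the design, and exceptions are stated where they occur. Every sample column of the table was used. Some genes of the lists are counted in the totals but are not reported here by name.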

Additional observations from a re-analysis of the deposited data

How the results depend on the processing

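Among fold changes of the 8 genes over the 5 comparisons, all kept their side of the threshold under DESeq2, its size factors, both other filters and fits of 4 libraries. With library totals as the only scaling 30 of 40 did so. The members called higher were then 2 in the sex-converted line and 2 in the native line, and those called lower 2 and 2, beside 15.9% of all tested genes higher and 52.1% lower in the sex-converted line and 16.7% and 51.0% in the native line. Signs turned for Tsc1 (-0.89 and -0.63 in the sex-converted and native lines), Mtor (-0.29 and -0.059), Rps6kb1 (-0.12 and -0.41) and Kit (-0.49 and -0.39); the cause was not tested. Leaving out 1 library kept 314 of 320 values on their side, the members called higher in the sex-converted line ranged over 4 to 6 (4 without sex-converted MII replicate 2), and those called lower there over 0 to 1. The other 6 are Tsc2, Mtor and Rps6kb1 in that line, given above.

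Replicate numbers did not pair the samples: deviations of same-numbered libraries correlated at 0.181 between lines at MII and -0.521 between lines at GV. A replicate block left 39 of 40 values on their side and ended the Tsc2 call in the sex-converted line (-0.73, edgeR adjusted p = 0.0543), so that 0 members were called lower there. Crossing the numbers at GV, a choice made after seeing the data, called 1 gene higher and 1 lower of all tested, and 0 members. With the length of the longest transcript in place of the exon length, the highest member exceeded the lowest 12 times in native GV oocytes. On that length Akt1, and not Foxo3, was the highest member at GV in both lines. Of 1016 values for the 34 named pathway genes, 21 lost their call and 2 reversed.

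Groups of 2 libraries allow no test of whether 1 library stands apart from its group, and each kind of stem cell gives 1 comparison of stages. Depth limits Tsc2 most, with 149 reads in its lowest library.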

Other observations

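Among the 8 genes of energy and stress inputs to mTOR, 2 were higher and 2 lower at MII in both lines. Ddit4, which restrains mTOR complex 1 under stress, had 691 and 768 CPM in sex-converted MII oocytes against 158 and 86.6 CPM in sex-converted GV oocytes, and 790 and 687 CPM in native MII oocytes against 75.9 and 178 CPM in native GV oocytes. The stages were far apart, although the GV replicates of each line differed. The higher GV values, 158 and 178 CPM, were in the libraries with the lower mitochondrial share, 0.0751% and 0.077% of reads. The part of that split in the result was not tested. The log2 fold changes were 2.58 (SE 0.38) and 2.54 (SE 0.37) in the sex-converted and native lines. Without native GV replicate 2 the second was 3.28. The subunits of AMP-activated protein kinase, the energy sensor that phosphorylates Tsc2, did not move together. Prkab1, a regulatory subunit, was higher at MII, with 1.49 (SE 0.21) and 1.54 (SE 0.21). Prkaa1, a catalytic subunit, was lower, with 37 and 92 reads in sex-converted MII oocytes against 928 and 1517 reads at GV in the same line, and in the native line 52 and 41 reads at MII against 1580 and 752 reads at GV. Prkag1, another regulatory subunit, had -1.005 (SE 0.36, edgeR adjusted p = 0.028) and -1.26 (SE 0.36, edgeR adjusted p = 0.0101), calls lost in the sex-converted line without GV replicate 1 or MII replicate 2 (-0.76 and -0.79) and in the native line without GV replicate 2 or MII replicate 2 (-0.79 and -1.10).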
